A study of Homo sapiens with 6 samples.

Results

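Transcripts of the protein folding and degradation machinery of the endoplasmic reticulum (ER) were compared between AGS cells, an established human gastric carcinoma line, kept with celecoxib and control AGS cells. The list held 42 genes: 12 chaperones and cofactors, 12 enzymes of disulfide bond formation and their relatives, 15 factors of ER-associated degradation (ERAD), and 3 regulators of the unfolded protein response. A gene was taken where the array annotation gave a transcript cluster with that symbol alone, and where there were several clusters the 1 with the highest mean over all 6 arrays was used. This gave values for 40 of the 42 genes, among 18417 genes on the array. PDIA3 and TXNDC5 had only clusters shared with other genes and were not analysed. The treated group was 3 arrays of cells given 20 µM celecoxib, an inhibitor of cyclooxygenase-2 taken from a DMSO stock, for 24 h after 48 h of growth in wells. The other group was 3 arrays of control cells without celecoxib. Whether these received DMSO is not given, so drug and solvent cannot be told apart. The labels call the arrays biological replicates but also mention pooling of samples after the RNA check, so the p-values measure only the spread between these arrays, which may be technical.

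Proteins enter the ER unfolded and are held there by chaperones of the HSP70 and HSP90 type and by the lectins calnexin and calreticulin, while protein disulfide isomerases and ERO1 oxidases join their cysteines. Proteins that fail to fold are recognised by lectins, trimmed of mannose, passed back through a membrane complex around SEL1L and SYVN1, and degraded by the proteasome. The sensors ATF6 and ERN1, with the transcription factor XBP1, raise the transcription of many of these genes when unfolded proteins build up, a response called the unfolded protein response. It matters in secretory epithelia such as the stomach lining, and celecoxib has been studied as a drug that can disturb ER calcium.

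Every value below is a log2 expression value of 1 transcript cluster on 1 array, or a log2 difference, celecoxib minus control. Array medians were 6.750, 6.776 and 6.790 with celecoxib and 6.805, 6.819 and 6.802 in controls. Each celecoxib median thus lay below each control median. Pearson's r between arrays, across clusters, lay between 0.985 and 0.996. Of 11 markers of gastric or simple epithelium, 10 gave signals above that of the median gene, against 1 of 4 leukocyte, 0 of 3 endothelial, 2 of 4 fibroblast and muscle, and 1 of 3 plasma cell markers. The leukocyte marker PTPRC gave 3.88, 4.05 and 4.10 with celecoxib and 3.92, 3.85 and 4.07 in controls. Signals of different clusters also depend on their probes and were not read as amounts. The sum of the log2 values of the 11 epithelial markers was 105.7 to 106.5 with celecoxib and 106.7 to 107.3 in controls. Its part in the results was not tested. The arrays average over all cells of a sample, so fewer cells with a transcript and less of it per cell cannot be told apart. The array celecoxib 1 stood apart in small nucleolar and Cajal body RNA, whose median over 192 genes was 7.546, 7.277 and 7.178 in celecoxib arrays 1 to 3, against 7.127, 6.997 and 7.095 in the controls.

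The question was whether ER folding and degradation genes differed with celecoxib. None of the 40 genes passed an adjusted p of 0.05 (limma, Benjamini-Hochberg over all 18417 genes), where 0.141% of all genes did. At an unadjusted p under 0.05, 10 of the 40 (25%) were higher with celecoxib, beside 6.87% of all genes, and 0 were lower, beside 4.44%. These 10 were ERO1B, EDEM3, SEL1L, HERPUD1, SELENOS, DNAJB9, HSPA5, ERP44, DNAJC10 and UBE2J1. All 3 celecoxib values lay above all 3 control values in 17 of the 40 genes (42.5%), beside 11.1% of all genes, and below them in 2 (5%), beside 7.95%. A positive difference was found in 30 of the 40 (75%), beside 47.9% of all genes. With each array centred on its median, 11 chaperones, 8 disulfide enzymes, 12 degradation factors and 3 regulators had positive differences, beside 59.5% of all genes. Since most of these clusters gave a strong signal, the counts were also set against the genes above 6.785, the median signal of all clusters. There 10 of 39 members (25.6%) were higher at an unadjusted p under 0.05, beside 10.6% of the genes so kept, and 29 of 39 (74.4%) had a positive difference, beside 52%. The largest differences were 0.52 for ERO1B and -0.15 for ERO1A, a 1.44-fold higher and a 1.11-fold lower signal.

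**Figure D1:**
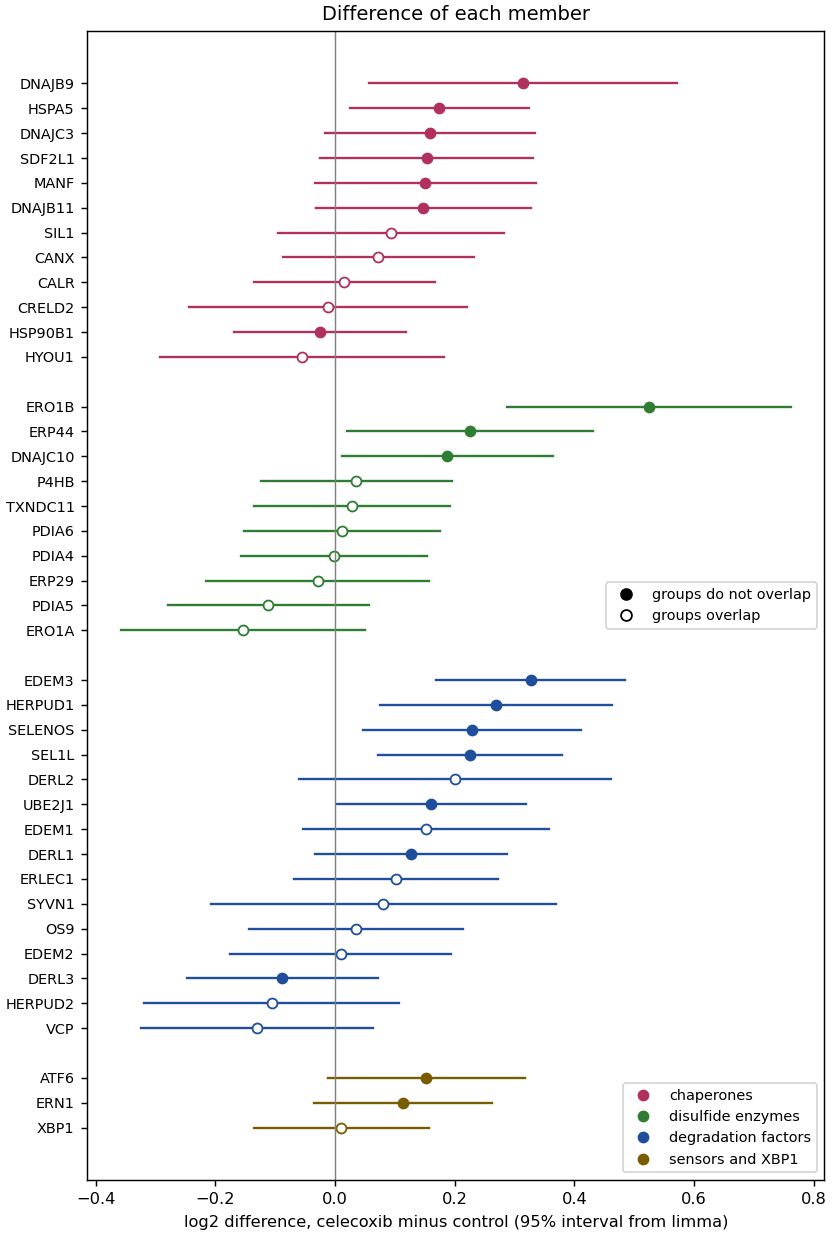
Log2 difference, celecoxib minus control, of each of the 40 genes on the x axis, with the 95% interval from limma, grouped by role and sorted within it. Filled points mark genes whose 3 celecoxib and 3 control values do not overlap; ERO1B (0.52) and EDEM3 (0.33) stand furthest to the right, and HSP90B1, CALR, P4HB, PDIA6, PDIA4 and XBP1 lie near 0.

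Among the 12 chaperones and cofactors, BiP and several of its partners had higher values with celecoxib, and HSP90B1 and the lectins CALR and CANX differed little. The median difference was 0.12, against -0.0068 over all genes, with 9 higher and 3 lower. It was 0.023 with the level of small nucleolar and Cajal body RNA as a covariate. The 6 genes DNAJB9, HSPA5, DNAJC3, SDF2L1, DNAJB11 and MANF (50%) had every celecoxib value above every control value, beside 11.1% of all genes. Of the 12, DNAJB9 and HSPA5 (16.7%) were higher at an unadjusted p under 0.05, beside 6.87%. HSPA5, which encodes BiP, the HSP70 of the ER lumen, gave 11.91, 11.93 and 11.99 with celecoxib and 11.77, 11.76 and 11.77 in controls. The 3 control values were almost the same, and the groups were well apart for so small a step. The difference was 0.17 ± 0.07 (SE, n = 3 per group, limma adjusted p = 0.383), a 1.13-fold higher signal, with a 95% interval from 0.025 to 0.32. Its unadjusted p was 0.0271, and 0.0844 with cyclic loess normalization, where the difference was 0.14. The bases upstream of the HSPA5 start (RefSeq, GRCh38.p14) are shown because this is the standard promoter of the unfolded protein response; capitals mark CCAAT or its reverse complement ATTGG, and CCACG or CGTGG, the ends of the ER stress element described further on.
HSPA5, chr9:125241344-125241593, - strand: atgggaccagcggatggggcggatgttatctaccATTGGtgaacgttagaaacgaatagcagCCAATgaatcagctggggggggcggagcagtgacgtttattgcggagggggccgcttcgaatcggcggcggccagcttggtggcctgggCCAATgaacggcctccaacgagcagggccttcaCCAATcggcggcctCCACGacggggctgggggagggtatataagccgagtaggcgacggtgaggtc

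DNAJB9, an HSP40 partner of BiP that also restrains the sensor ERN1, gave 7.97, 7.63 and 7.54 with celecoxib and 7.45, 7.34 and 7.41 in controls. Its difference of 0.31 ± 0.11 (limma adjusted p = 0.368) leaned on celecoxib 1, without which it was 0.19. DNAJC3, a BiP partner known as an inhibitor of eIF2-alpha kinases, gave 8.76, 8.64 and 8.58 with celecoxib and 8.55, 8.43 and 8.53 in controls, a difference of 0.16 ± 0.08 (adjusted p = 0.468). SDF2L1, a partner of ER HSP40 proteins, gave 7.98, 7.85 and 7.76 with celecoxib and 7.69, 7.70 and 7.73 in controls (0.15 ± 0.08, adjusted p = 0.489). DNAJB11, another HSP40 protein of the lumen, gave 9.87, 9.68 and 9.68 with celecoxib and 9.56, 9.63 and 9.60 in controls (0.15 ± 0.08, adjusted p = 0.501). Celecoxib 1 was the highest array in each of DNAJB9, DNAJC3, SDF2L1, DNAJB11 and MANF, and the other celecoxib arrays were nearer to the controls. Over all settings the lowest difference was 0.018 for DNAJB9, 0.022 for DNAJC3, 0.020 for SDF2L1, 0.028 for DNAJB11 and 0.016 for MANF. For HSPA5 it was 0.14. MANF, a secreted ER protein that binds BiP, differed by 0.15 ± 0.08, and SIL1, which exchanges the nucleotide of BiP, by 0.094 ± 0.082.

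The other chaperones of this group were near 0. HSP90B1, the HSP90 of the ER, gave 12.49 in each celecoxib array and 12.53, 12.51 and 12.52 in controls. The groups did not overlap, but the step was only -0.026 ± 0.063 (limma adjusted p = 0.892; 95% interval -0.17 to 0.12) and turned to 0.011 when each array was centred on its median. CALR, the soluble lectin calreticulin, gave 10.81, 10.86 and 10.91 with celecoxib and 10.85, 10.85 and 10.83 in controls. The groups overlapped, and its difference of 0.015 ± 0.066 (adjusted p = 0.941) had an interval from -0.14 to 0.17. CANX, the membrane lectin calnexin, differed by 0.072 ± 0.069, HYOU1, a large HSP70 relative that serves as a BiP cofactor, by -0.056 ± 0.10, and CRELD2, a secreted ER stress protein, by -0.012 ± 0.10. CRELD2 spread widely with celecoxib, at 7.56, 7.37 and 7.16, against 7.36, 7.38 and 7.39 in controls.

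**Figure D2:**
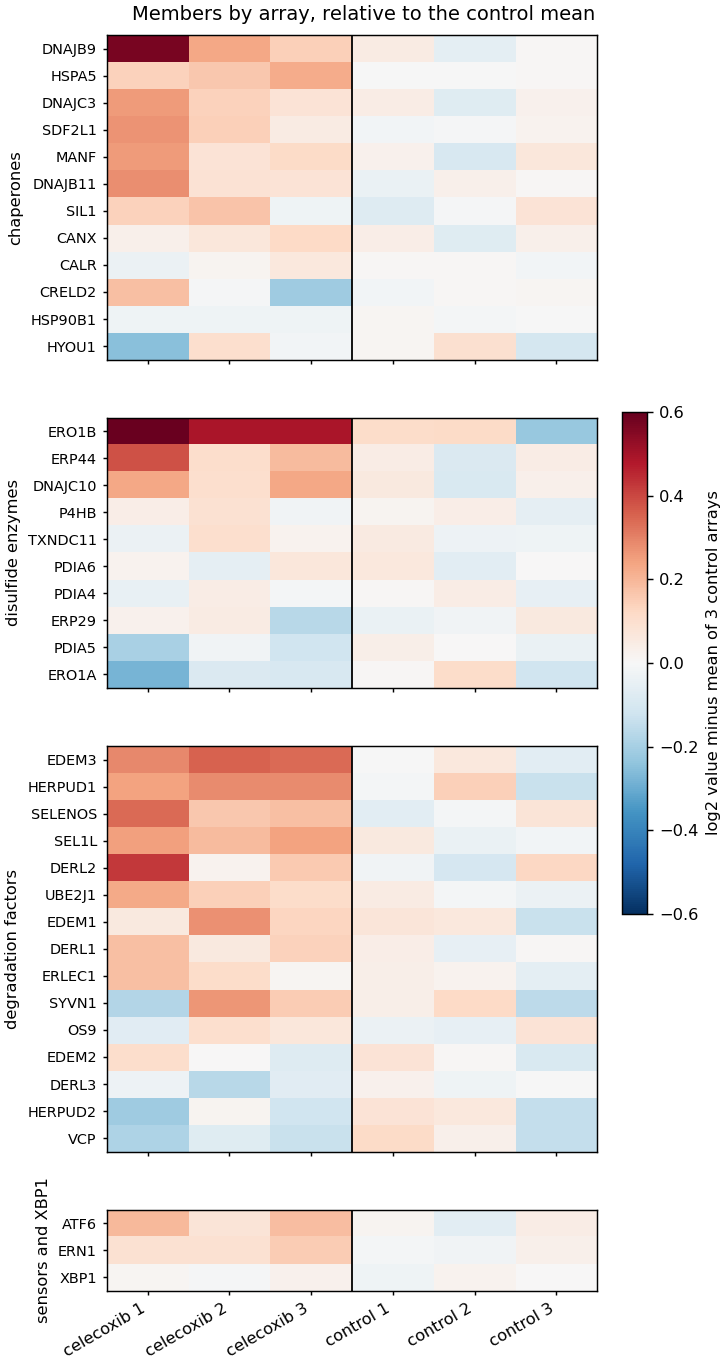
Each cell is the log2 value of a gene (rows, by role) on an array (columns, celecoxib left of the line, controls right of it) minus that gene's mean over the 3 controls; red is higher and blue lower. ERO1B, EDEM3, HERPUD1 and SEL1L are red in all 3 celecoxib arrays, while DNAJB9, ERP44 and DERL2 are reddest in celecoxib 1.

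The disulfide enzymes were split. ERO1B, ERP44 and DNAJC10, 30% of the 10 measured genes, were higher with celecoxib with no overlap between groups and an unadjusted p under 0.05. Over all genes, 11.1% had every celecoxib value above every control value and 6.87% were higher at that p. The other 7 measured genes, among them the isomerases P4HB, PDIA4, PDIA5 and PDIA6, overlapped. The median difference over the 10 genes was 0.020, with 6 higher and 4 lower, and it turned to -0.012 with cyclic loess normalization and to -0.0023 with array weights. ERO1B, an oxidase that feeds electrons from the isomerases to oxygen and is known for its role in insulin-producing cells, gave 6.56, 6.46 and 6.46 with celecoxib and 6.08, 6.08 and 5.74 in controls. All celecoxib values were above all controls, and control 3 was the lowest array. The difference was 0.52 ± 0.10 (SE, n = 3 per group, limma adjusted p = 0.138; 95% interval 0.29 to 0.76), and ERO1B ranked 119 of 18417 genes by p. Its signal was below 6.785, the median of all clusters, and without control 3 the difference was 0.41.

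ERO1A, the paralog of wide expression, which is also induced by hypoxia, gave 10.59, 10.78 and 10.77 with celecoxib and 10.87, 10.98 and 10.75 in controls. These overlapped, with a difference of -0.15 ± 0.09 (limma adjusted p = 0.531). It was -0.092 without celecoxib 1, -0.098 without control 2 and 0.0056 with the small RNA covariate. ERP44, which holds back unassembled proteins and the ERO1 oxidases in the early secretory pathway, gave 11.02, 10.75 and 10.83 with celecoxib and 10.69, 10.55 and 10.69 in controls. The step of 0.23 ± 0.09 (adjusted p = 0.413) was 0.15 without celecoxib 1, the highest array. DNAJC10, a disulfide reductase with an HSP40 domain that helps unfold ERAD substrates, gave 10.21, 10.08 and 10.21 with celecoxib and 10.03, 9.88 and 10.01 in controls, a difference of 0.19 ± 0.08 (adjusted p = 0.421).

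P4HB, the archetypal protein disulfide isomerase, gave 12.17, 12.22 and 12.11 with celecoxib and 12.15, 12.17 and 12.08 in controls, a difference of 0.036 ± 0.069 (limma adjusted p = 0.861; 95% interval -0.12 to 0.20). It was the 1 member with a second cluster, which differed by -0.023, so the clusters disagreed in sign at a size below the standard error. PDIA5, an isomerase linked to ATF6 activation, gave 8.94, 9.11 and 9.01 with celecoxib and 9.17, 9.14 and 9.09 in controls, a difference of -0.11 ± 0.07 (adjusted p = 0.572). The remaining isomerases and relatives were close to 0: the isomerases PDIA6 at 0.012 and PDIA4 at -0.0022, the membrane protein TXNDC11 at 0.028, and ERP29, a relative without the active cysteine pair, at -0.029. The intervals of PDIA6 (-0.15 to 0.18) and PDIA4 (-0.16 to 0.15) leave room for small steps in either direction.

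Of the 15 degradation factors, 5 (33.3%) were higher at an unadjusted p under 0.05, beside 6.87% of all genes, and 0 were lower, beside 4.44%. The share was 30% for the disulfide enzymes and 16.7% for the chaperones, and the difference between roles was not tested. The median difference was 0.13, with 12 higher and 3 lower, and the groups did not overlap in 6 higher genes (40%) and 1 lower (6.67%), beside 11.1% and 7.95% of all genes. EDEM3, a mannosidase that trims glycans of misfolded proteins and so marks them for removal, gave 9.52, 9.58 and 9.57 with celecoxib and 9.22, 9.29 and 9.17 in controls. The groups were far apart for their spread. The difference was 0.33 ± 0.07 (SE, n = 3 per group, limma adjusted p = 0.168; 95% interval 0.17 to 0.49), a 1.25-fold higher signal, at rank 148 of 18417 genes by p. With array weights its adjusted p was 0.0372, where 0.961% of all genes passed, and EDEM3 was then the 1 member past the threshold. It was 0.35 without celecoxib 1. SEL1L, the scaffold of the membrane ubiquitin ligase complex, gave 9.88, 9.83 and 9.88 with celecoxib and 9.70, 9.60 and 9.62 in controls, again without overlap, and differed by 0.23 ± 0.07 (adjusted p = 0.313). HERPUD1, a membrane protein that gathers this complex and is strongly induced by ER stress in many cells, gave 8.60, 8.64 and 8.64 with celecoxib and 8.34, 8.50 and 8.23 in controls. The celecoxib arrays were tightly grouped above spread controls, and the difference was 0.27 ± 0.08 (adjusted p = 0.333). The sequences upstream of the starts of these 3 genes are shown, with the same capitals as for HSPA5, because they had the smallest p of the degradation factors.
EDEM3, chr1:184754859-184755108, - strand: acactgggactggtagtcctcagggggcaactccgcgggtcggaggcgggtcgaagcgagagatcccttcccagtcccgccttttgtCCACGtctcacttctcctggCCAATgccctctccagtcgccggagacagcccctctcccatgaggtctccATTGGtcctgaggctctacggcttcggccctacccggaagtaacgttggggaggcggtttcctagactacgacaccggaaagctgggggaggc
SEL1L, chr14:81533854-81534103, - strand: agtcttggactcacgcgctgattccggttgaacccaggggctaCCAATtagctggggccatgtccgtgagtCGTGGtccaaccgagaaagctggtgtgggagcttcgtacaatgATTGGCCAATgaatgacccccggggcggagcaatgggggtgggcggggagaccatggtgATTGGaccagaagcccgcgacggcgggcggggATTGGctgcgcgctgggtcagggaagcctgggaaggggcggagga
HERPUD1, chr16:56931892-56932141, + strand: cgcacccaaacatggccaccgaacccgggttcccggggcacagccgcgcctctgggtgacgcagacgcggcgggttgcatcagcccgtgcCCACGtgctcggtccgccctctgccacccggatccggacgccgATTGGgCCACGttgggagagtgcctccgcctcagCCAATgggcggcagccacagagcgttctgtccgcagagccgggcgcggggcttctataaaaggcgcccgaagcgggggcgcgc

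SELENOS, a selenoprotein of the ER membrane that recruits VCP, gave 8.15, 7.97 and 7.99 with celecoxib and 7.75, 7.80 and 7.89 in controls. It differed by 0.23 ± 0.08 (limma adjusted p = 0.363), and by 0.17 without celecoxib 1, the highest array. UBE2J1, a ubiquitin-conjugating enzyme anchored in the ER membrane, gave 9.78, 9.70 and 9.66 with celecoxib and 9.60, 9.54 and 9.52 in controls, and differed by 0.16 ± 0.07 (adjusted p = 0.436). The derlins, channel-forming proteins of the membrane complex, differed in sign. DERL1 differed by 0.13 ± 0.07, with no overlap, and DERL2 by 0.20 ± 0.11, with overlap. DERL2 was 0.089 without celecoxib 1, its highest array. DERL3, the remaining derlin, gave 6.84, 6.70 and 6.80 with celecoxib and 6.90, 6.84 and 6.87 in controls, a difference of -0.088 ± 0.069 (adjusted p = 0.639) with the groups just apart.

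Of the other degradation factors, SYVN1, the ubiquitin ligase that works with SEL1L, differed by 0.081 ± 0.13. It spread widely with celecoxib, at 8.28, 8.73 and 8.62, against 8.50, 8.58 and 8.31 in controls. EDEM1 and EDEM2, relatives of EDEM3, differed by 0.15 ± 0.09 and 0.0094 ± 0.081. The lectins ERLEC1 and OS9, which read trimmed glycans, differed by 0.10 ± 0.07 and 0.035 ± 0.078. Negative differences with overlapping groups were found for VCP, the ATPase that pulls substrates from the membrane, at -0.13 ± 0.08, and for HERPUD2, a relative of HERPUD1, at -0.11 ± 0.09. VCP was -0.21 with array weights (unadjusted p = 0.0209), -0.20 without control 3 (unadjusted p = 0.0408) and -0.074 without control 1. Over the 15 factors the adjusted p ran from 0.168 to 0.972.

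The 3 regulators had small positive differences and none had an unadjusted p under 0.05 in the comparison of all genes. ATF6, a membrane-bound transcription factor released by proteolysis under stress, gave 11.06, 10.95 and 11.06 with celecoxib and 10.89, 10.81 and 10.91 in controls, a difference of 0.15 ± 0.07 (limma adjusted p = 0.457). ERN1, the kinase and endoribonuclease that splices XBP1 RNA, gave 7.74, 7.74 and 7.80 with celecoxib and 7.63, 7.63 and 7.68 in controls, a difference of 0.11 ± 0.06 (adjusted p = 0.528). In both genes every celecoxib value was above every control value, as in 11.1% of all genes. With array weights the unadjusted p was 0.0418 for ATF6 and 0.0386 for ERN1. ATF6 was also under 0.05 among genes above the median signal (0.0476), with centred arrays (0.0355), with an intensity trend (0.0369) and without celecoxib 2 (0.0458). The share of compared genes higher at that threshold was then 10.6%, 9.96%, 7.45% and 7.15%, and 9.81% with array weights. ATF6 stood at 0.0639 in the comparison of all genes and was not under 0.05 with cyclic loess, the replicate block or the small RNA covariate. Over all settings its difference ran from 0.11 to 0.19 and its adjusted p from 0.257 to 0.826. XBP1 gave 10.56, 10.54 and 10.57 with celecoxib and 10.52, 10.57 and 10.55 in controls, a difference of 0.011 ± 0.064 (adjusted p = 0.959; 95% interval -0.14 to 0.16). The groups overlapped. Its 1 value sums spliced and unspliced RNA, so splicing was not measured.

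Within 4 families of paralogs the within-array log2 ratio was compared between groups, a comparison that was not in the plan. Its first pair, ERO1B and ERO1A, joins the largest positive and the largest negative difference of the 40 genes. ERO1B minus ERO1A was -4.03, -4.32 and -4.31 in the celecoxib arrays and -4.79, -4.89 and -5.01 in controls, a shift of 0.68 towards ERO1B. HERPUD1 minus HERPUD2 was -0.82, -1.01 and -0.88 with celecoxib and -1.37, -1.20 and -1.26 in controls, a shift of 0.37. EDEM3 moved by 0.32 against EDEM2 and by 0.17 against EDEM1, and DERL1 and DERL2 moved by 0.21 and 0.29 against DERL3. In each of these 6 pairs the groups did not overlap. Among all single genes, 11.1% had every celecoxib value above and 7.95% below every control value. The share over all pairs of genes was not computed. The EDEM genes and the derlins each enter several pairs, so the pairs are not separate results. For each of the 6 pairs the two-sided exact permutation p was 0.1, the smallest that 3 arrays against 3 allow. It was 0.133 after Benjamini-Hochberg adjustment over the 8 pairs compared. The other pairs overlapped: EDEM2 against EDEM1 shifted by -0.14 (exact p = 0.4) and DERL2 against DERL1 by 0.074 (exact p = 0.5).

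**Figure D3:**
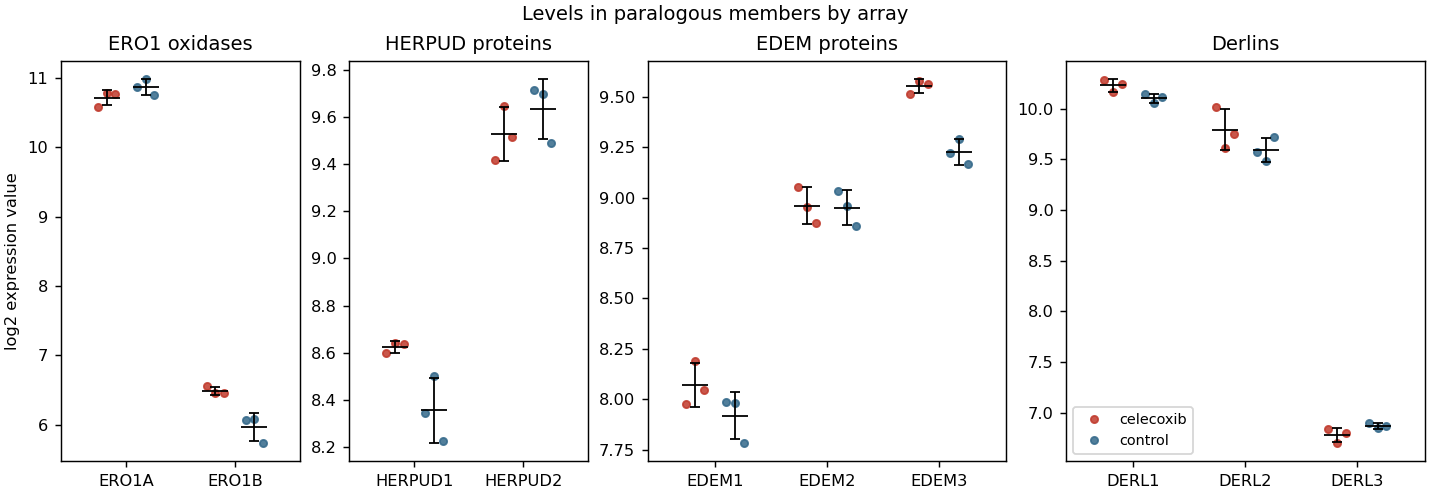
Log2 expression values of paralogous genes on the y axis (each panel has its own range), with celecoxib arrays left in red and control arrays right in blue; black bars are the mean and the SD (n = 3). ERO1B, HERPUD1 and EDEM3 are higher with celecoxib with no overlap, while ERO1A, HERPUD2 and EDEM2 overlap; heights of different genes also depend on their probes.

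The arrays did not share 1 pattern. After each gene's control mean was taken off, the median over the 15 degradation factors was 0.18, 0.11 and 0.13 in the celecoxib arrays and 0.036, 0.0088 and -0.058 in controls. For the 12 chaperones it was 0.16, 0.093 and 0.073 with celecoxib and 0.010, -0.0063 and 0.0096 in controls. Both sets of medians were higher in every celecoxib array than in every control. For the 10 disulfide enzymes it was 0.024, 0.071 and 0.0054 with celecoxib and 0.040, -0.0093 and -0.033 in controls, and these overlapped. Of the 3 celecoxib arrays, celecoxib 1 was the highest in 17 of the 40 genes and the lowest in 17 others, among them HYOU1, SYVN1, VCP and ERO1A. The SD of a gene over the 3 arrays had a median of 0.080 with celecoxib and 0.059 in controls, against 0.11 and 0.088 over all genes.

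Small nucleolar and Cajal body RNA differed between the groups too and was entered as a covariate. Its level in each celecoxib array exceeded that of each control, so it shares part of the group difference, and its part in the results cannot be told apart from the treatment. With it the median difference was 0.023 for chaperones, 0.081 for degradation factors, 0.035 for disulfide enzymes and 0.11 for the regulators, and 5 genes were higher at an unadjusted p under 0.05, beside 3.31% of all genes. These were HSPA5, ERO1B, HERPUD1, EDEM3 and SYVN1. DNAJB9 then stood at 0.018, ERP44 at 0.049 and DERL2 at -0.034, against 0.31, 0.23 and 0.20 without the covariate. EDEM3 stood at 0.39, HERPUD1 at 0.34, HSPA5 at 0.22 and ERO1B at 0.48, close to or above their values without it. SYVN1 stood at 0.36, against 0.081 without the covariate. Leaving out celecoxib 1 gave medians of 0.087 for chaperones and 0.10 for degradation factors, and 6 genes higher at an unadjusted p under 0.05, beside 5.01% of all genes. That count was 5 without control 1 (beside 4.3% of all genes), 4 without control 2 (3.89%), 7 without control 3 (6.28%), 11 without celecoxib 2 (7.15%) and 7 without celecoxib 3 (7.25%).

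**Figure D4:**
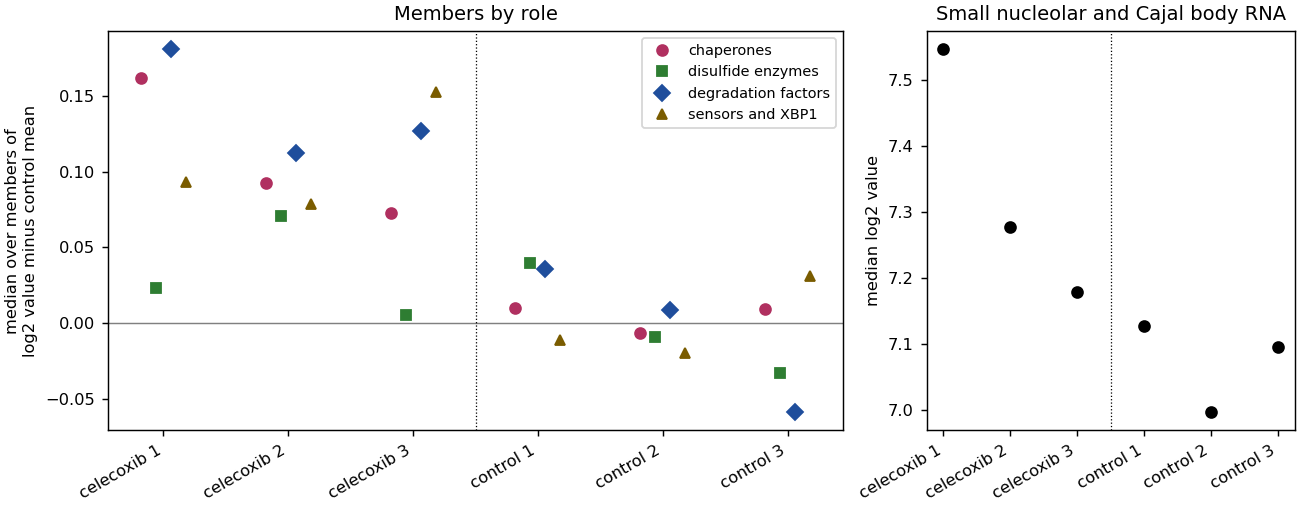
Left, the median over the genes of each role of the log2 value minus the control mean, by array, with celecoxib arrays left of the dotted line; right, the median log2 value of 192 small nucleolar and Cajal body RNA genes on the same arrays. Degradation factors (0.11 to 0.18) and chaperones (0.073 to 0.16) lie above all controls in every celecoxib array, and celecoxib 1 has the highest small RNA signal (7.55).

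The promoters of the genes were read for elements of the unfolded protein response. The ER stress element (ERSE), bound by ATF6 together with the CCAAT factor NF-Y, was searched as CCAAT and CCACG with any 9 bases between, its variant ERSE-II as ATTGG and CCACG with any 1 base between, and the core of the unfolded protein response element (UPRE) as TGACGTGG, on both strands, in RefSeq windows of GRCh38.p14 from 250 bases before to 50 after each start. Windows were given for 39 of the 42 genes (not for PDIA3, DERL1 and DERL3). An ERSE was found in 8 of the 39 genes (20.5%), beside 0.0916% of all 27305 genes with a window, and an ERSE-II in 3 (7.69%), beside 0.0696%. The UPRE core was in 6 (15.4%), beside 0.927% of genes, and in HYOU1 it overlapped an ERSE-II. Of all 35116 windows, 0.0769% held an ERSE, 0.0541% an ERSE-II and 0.729% a UPRE core. The genes found include known targets from which the elements were first defined. The ERSE and ERSE-II matches are printed, because these elements are bound by ATF6, with 10 bases on either side where the window holds them, in capitals, on the strand of the gene, and those that start with CGTGG read in reverse.
HSPA5, chr9:125241381-125241419, - strand: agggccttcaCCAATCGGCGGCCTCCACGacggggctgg
HSP90B1, chr12:103930206-103930244, + strand: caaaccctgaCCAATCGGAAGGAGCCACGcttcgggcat
HSP90B1, chr12:103930311-103930349, + strand: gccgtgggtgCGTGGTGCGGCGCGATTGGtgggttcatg
CALR, chr19:12938374-12938412, + strand: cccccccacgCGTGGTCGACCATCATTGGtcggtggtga
CANX, chr5:179698768-179698806, + strand: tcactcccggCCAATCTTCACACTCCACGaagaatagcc
CRELD2, chr22:49918544-49918582, + strand: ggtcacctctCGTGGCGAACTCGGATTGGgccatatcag
PDIA6, chr2:10812843-10812881, - strand: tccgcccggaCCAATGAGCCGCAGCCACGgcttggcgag
ERO1B, chr1:236282173-236282208, - strand: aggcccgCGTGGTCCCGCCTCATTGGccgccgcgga
XBP1, chr22:28800593-28800631, - strand: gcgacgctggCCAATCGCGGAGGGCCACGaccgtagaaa
HYOU1, chr11:119057370-119057400, - strand: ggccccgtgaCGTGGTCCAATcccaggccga
HYOU1, chr11:119057264-119057294, - strand: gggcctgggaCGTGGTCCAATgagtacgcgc
SDF2L1, chr22:21642104-21642134, + strand: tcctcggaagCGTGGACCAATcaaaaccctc
HERPUD1, chr16:56932015-56932045, + strand: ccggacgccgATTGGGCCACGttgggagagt

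Of the 8 genes with an ERSE, HSPA5 and ERO1B were higher at an unadjusted p under 0.05, and the other 6 (HSP90B1, CALR, CANX, CRELD2, PDIA6 and XBP1) lay between -0.026 and 0.072, with a median over the 8 of 0.013. The 3 genes with an ERSE-II were HERPUD1 at 0.27, SDF2L1 at 0.15 and HYOU1 at -0.056. Together the 11 genes with either element had a median difference of 0.015, with 3 higher at an unadjusted p under 0.05, beside 6.87% of all genes. The 5 measured genes with a UPRE core (HYOU1, TXNDC11, DNAJC10, VCP and UBE2J1) had a median of 0.028, between -0.13 and 0.19, with 2 higher at that threshold. The 27 measured genes with a window and neither an ERSE nor an ERSE-II, which include all of these but HYOU1, had a median of 0.11, with 7 higher at that threshold, among them EDEM3 and SEL1L. The differences between these medians were not tested. Over the other genes of the genome, 33 held an ERSE or ERSE-II in a window. Of these, 25 were measured, with a median difference of -0.075. At an unadjusted p below 0.05, 2 of them had higher values with celecoxib, beside 6.87% of all genes, and 4 had lower ones, beside 4.44%. The signal level of these 25 genes was not matched to that of the members, so the sets are not directly comparable. The EDEM3 and SEL1L windows do hold CCAAT, which 34.6% of all windows hold, without CCACG at the spacing searched. A match of letters is not a bound site, and no match says only that these letters are not in this window.

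**Figure D5:**
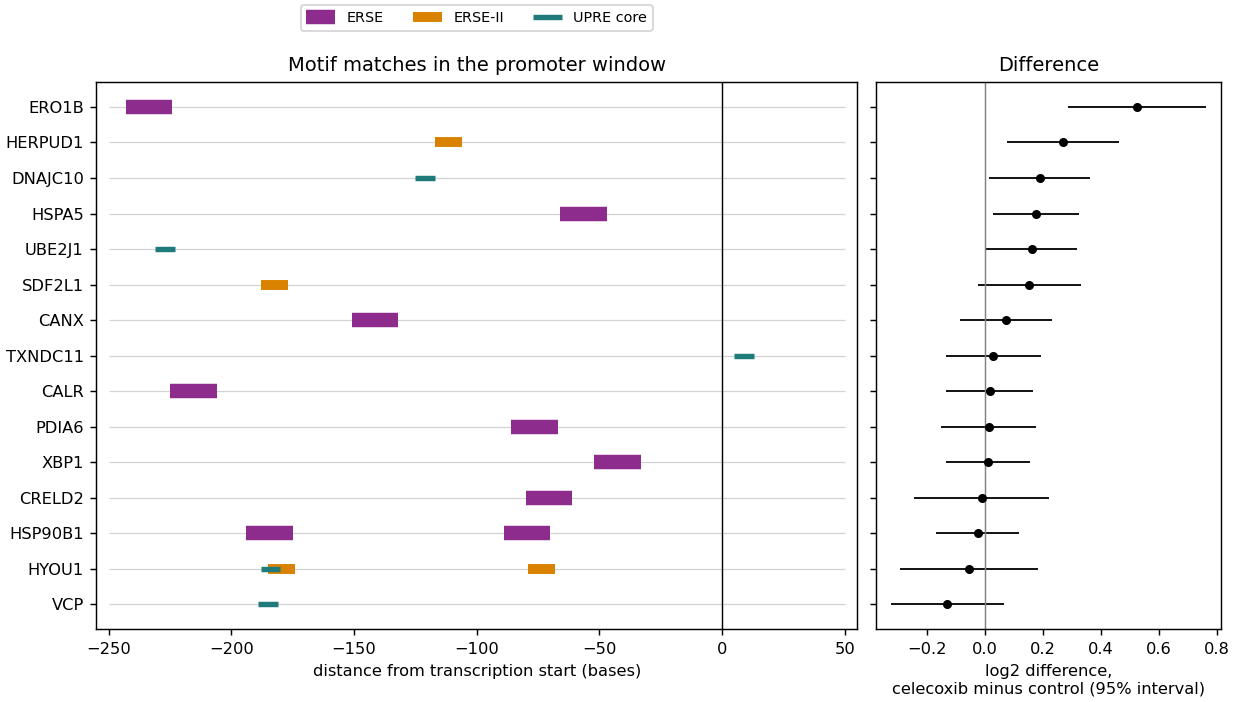
Left, matches of the 3 elements between 250 bases before and 50 after the transcription start of each measured gene that holds one (for CANX, the middle of its 3 windows); right, the log2 difference, celecoxib minus control, with its 95% interval. The ERSE genes from CANX to HSP90B1 lie near 0, while ERO1B, HERPUD1 and HSPA5 lie to the right of it.

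Other genes of the secretory pathway were taken from 5 lists grouped by function, with 193 of 202 genes measured, and 0 of them passed an adjusted p of 0.05. At an unadjusted p under 0.05, 26 (13.5%) were higher, beside 6.87% of all genes, and 0 lower, beside 4.44%. The median signal of the lists was 8.02 to 10.6, against 7.27 over all genes. Among genes above 6.785, the median signal of all clusters, 10.6% were higher at that threshold and 52% had a positive difference. Transport from ER to Golgi had 37 of 43 genes (86%) with a positive difference, beside 47.9% of all genes, and a median of 0.097. Of these 43, 8 (18.6%) were higher at that threshold, and in 21 (48.8%) every celecoxib value exceeded every control value, beside 11.1% of all genes. MIA3, which loads large cargo into vesicles, differed by 0.26 ± 0.07 (limma adjusted p = 0.272) and SEC22B, a membrane fusion protein, by 0.27 ± 0.08 (adjusted p = 0.318). Translocation and glycosylation had 34 of 41 genes higher (82.9%) and a median of 0.11. At that threshold 4 were higher (9.76%), below the 10.6% of genes above the median signal. The signal peptidase subunit SPCS3 stood at 0.33 ± 0.11 and the translocon protein SSR1 at 0.24 ± 0.08. The other folding factors had 26 of 42 higher (61.9%), a median of 0.050 and 8 (19%) at that threshold. Their smallest p was that of TMX4, a membrane thioredoxin, which gave 8.19, 8.05 and 8.07 with celecoxib and 7.80, 7.69 and 7.71 in controls, a difference of 0.37 ± 0.07 (adjusted p = 0.138), followed by TXNDC16 at 0.32 ± 0.08. The other degradation factors had 26 of 43 higher (60.5%) and a median of 0.048. At that threshold 4 were higher (9.3%), also below 10.6%. They were led by RHBDD2 (0.25 ± 0.09) and SVIP, an inhibitor of ERAD that binds VCP (0.37 ± 0.14). The list of other sensors and the PERK branch was balanced, with 12 of 24 higher and a median of -0.0048. In it DDIT3, the stress transcription factor CHOP, gave 8.23, 7.85 and 7.94 with celecoxib and 7.21, 7.29 and 7.53 in controls (0.66 ± 0.12, adjusted p = 0.11), and the kinase MAP3K5 differed by 0.30 ± 0.12 (adjusted p = 0.407).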

How the data were processed

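The authors deposited log2 expression values of 33297 transcript clusters on HuGene-1_0-st arrays, made with RMA in Affymetrix Expression Console 1.1, per the submitters' processing notes. Scanner files, slides and scan dates were not used here. Of the clusters, 19460 carried 1 gene symbol, and 18417 genes remained with the cluster of highest mean per gene. The 3 celecoxib arrays were compared with the 3 controls in a linear model (limma 3.58.1, R 4.3.3) without a filter, with Benjamini-Hochberg adjustment over all 18417 genes and a threshold of 0.05. The procedure was tested on simulated data. The number of arrays limits the precision. Paralog ratios were compared by exact permutation over all 20 splits of the arrays.

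The members and lists were chosen with earlier results of these data known. All 42 members are named, with all values for up to 5 of each role with the smallest p and for 12 textbook members, and up to 2 genes of each other list. The values of CRELD2 and SYVN1 are also given, chosen after they were seen. Protein sequences were not used here. Motifs were searched with Python 3.11.15 in the RefSeq promoter table, and figures were drawn with matplotlib 3.10.9. Alternatives were another choice of cluster, a signal filter, 2 normalizations, an intensity trend, array weights, a replicate block, a small RNA covariate and leaving out each array.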

Additional observations from a re-analysis of the deposited data

How the results depend on the processing

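No alternative gave a member past an adjusted p of 0.05 except array weights (EDEM3). Over all genes the count of 26 became 42 with cyclic loess, 76 above the median signal, 69 with an intensity trend, 177 with array weights, 1 with the small RNA covariate and 0 with the replicate block (7.73% of genes higher at an unadjusted p under 0.05), and 0 to 5 when 1 array was left out. No pairing of the arrays by replicate number was evident. Same-numbered arrays had deviations correlated at -0.0175, 0.494 and 0.012, and not every array correlated best with its own number. Celecoxib 1 correlated at 0.408 with control 3 and at -0.475 with control 2, and celecoxib 2 at -0.493 with control 3. With 3 arrays in each group these correlations cannot exclude a pairing. Members higher at an unadjusted p under 0.05 numbered 10, beside 6.87% of all genes. With the replicate block they numbered 9 (without UBE2J1), beside 7.73% of all genes. With centred arrays they numbered 12 (with DNAJC3 and ATF6), beside 9.96%. With cyclic loess they numbered 7 (without HSPA5, DNAJC10 and UBE2J1), beside 6.5%, and with the small RNA covariate 5, beside 3.31%. When 1 array was left out they numbered 4 to 11, beside 3.89% to 7.25%. Members lower numbered 0, 1 with array weights and 0 to 1 when 1 array was left out, in each case VCP. With arrays centred on their medians, the median difference was 0.16 for chaperones, 0.057 for disulfide enzymes and 0.15 for the regulators. The median over all genes was then 0.030. The disulfide median turned to -0.012 with cyclic loess and -0.0023 with array weights. With the small RNA covariate, chaperones stood at 0.023 and degradation factors at 0.081.

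Of 559 member values under 14 alternatives, 34 turned sign, in 14 members, and 26 members kept their sign throughout. With centred arrays HSP90B1 was 0.011, CRELD2 0.024, PDIA4 0.034 and ERP29 0.0074. With cyclic loess CALR was -0.022, PDIA6 -0.024, EDEM2 -0.024, OS9 -0.0014 and XBP1 -0.027. With array weights PDIA6 was -0.021, TXNDC11 -0.0013 and EDEM2 -0.084. With the small RNA covariate HYOU1 was 0.15, PDIA4 0.043, PDIA6 -0.0052, ERO1A 0.0056, EDEM2 -0.11 and DERL2 -0.034. When 1 array was left out, CALR ran from -0.0096 to 0.040, CRELD2 from -0.11 to 0.088, EDEM2 from -0.038 to 0.053, ERP29 from -0.069 to 0.038, HYOU1 from -0.13 to 0.042, PDIA4 from -0.027 to 0.019, PDIA6 from -0.020 to 0.043, SYVN1 from -0.012 to 0.21, TXNDC11 from -0.0081 to 0.061 and XBP1 from -0.0011 to 0.022. The cause of these turns was not tested. Without scanner files, no signal over background was available.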
